A study of Rattus norvegicus with 113 samples.

Results

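Transthyretin (Ttr), folate receptor alpha (Folr1), aquaporin 1 (Aqp1), the inwardly rectifying potassium channel Kcnj13, sclerostin domain containing 1 (Sostdc1), the metalloreductase Steap1, type VIII collagen alpha 1 (Col8a1) and the cation channel Trpv4 are 8 genes that mark the epithelium of the choroid plexus. They were read on 113 arrays of rat hippocampus and cortex after traumatic brain injury, sham surgery or no surgery. The probes were those whose RefSeq identifier belongs to one of these rat symbols, which gave 9 probes on the larger of 2 array designs, where Aqp1 has 2 probes, and 8 probes on the smaller. The 8 genes are part of 16581 genes with a name on the larger design and 15637 on the smaller. They were chosen by their use as markers of this epithelium with their levels on these arrays, and the way those levels rise and fall together within groups, already known; levels and correlations are therefore described without a test, and differences between groups were tested over all probes of the arrays.

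Adult male Sprague-Dawley rats received a parasagittal fluid percussion injury (TBI), in which a pulse of fluid strikes the dura through a hole in the skull, or the same anesthesia and surgery without the pulse (sham), or were left unhandled (naive); the injury is called moderate in the sample labels and severe in the methods. Whole hippocampus and a small piece of cortex near the injury were dissected by hand 24 hours, 2 weeks, 3 months, 6 months or 1 year later, and each array holds the RNA of 1 tissue sample; by the animal numbers of the files, both tissues were taken from the same rats at 2 weeks and 6 months, and in naive rats at 1 year. There were 4 arrays per tissue, interval and treatment, except that hippocampus at 24 hours had 2 sham and 3 TBI arrays and no naive arrays were analysed here. Hippocampus at 24 hours and 3 months (17 arrays) was read on the smaller design and the other 96 arrays on the larger one, and levels were not compared between designs.

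A level is the log2 signal of a probe minus the median log2 signal of its array, so a level of 0 is that of the median probe, and levels of different genes were not set against each other because probes differ in brightness. The scanner software marks each probe as well above background or not. The share so marked ran from 41.2% to 93.0% over the arrays (median 55.0%), and 0 spots were saturated. The highest share belonged to sham cortex at 2 weeks, replicate 3, which stood apart from all other arrays, and results that rest on it are given without it too. Next came naive hippocampus at 6 months, replicate 2 (72.4%), and naive cortex at 2 weeks, replicate 4 (65.1%). Every group was hybridised on 1 slide, and 15 slides were scanned on 6 days. TBI and sham lay on different slides at 24 hours and 6 months in both tissues and at 2 weeks in cortex. Sham and naive rats lay on different slides at 3 months and 1 year in both tissues, and at 2 weeks in hippocampus. Slide and treatment cannot be told apart in these comparisons. In naive rats, the hippocampal marker list had 4, 2 and 5 genes higher in hippocampus than in cortex at 2 weeks, 6 months and 1 year and none lower, of 9 tested at each interval; of the cortical list, 3, 5 and 5 genes were lower, of 9, 8 and 8 tested, and 2 were higher, both at 1 year. Over all probes, 3.8%, 4.8% and 25.3% were called higher in hippocampus at these intervals and 1.22%, 11.7% and 12% lower. The fit at 6 months gave every probe the same error, so its p-values are too small for probes with a wide spread.

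The choroid plexus is a folded sheet of cuboidal epithelium over a core of capillaries that hangs into the ventricles of the brain and secretes the cerebrospinal fluid. In the lateral ventricle it is attached along the fimbria, directly beside the hippocampus. Its epithelial cells secrete the thyroid hormone carrier transthyretin in large amounts, take up folate through Folr1, and move water and ions through channels such as Aqp1, Kcnj13 and Trpv4. At least Aqp1, Kcnj13 and Col8a1 are not restricted to this epithelium: Aqp1 is found in many water-transporting cells, Kcnj13 in other epithelia, and Col8a1 in vessel walls and connective tissue. Whether the other members, Trpv4 and Steap1 among them, come from this epithelium alone in these samples was not tested.

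Since the members moved together from array to array, the 250 bases before the transcription start of 3 of them are shown to let their promoters be compared. They were read from the RefSeq promoter table (assembly GRCr8), which holds 6 of the 8 genes; Folr1 and Sostdc1 are not shown. Capitals mark the letters TATAAA.
Ttr, chr18:12218508-12218757, plus strand: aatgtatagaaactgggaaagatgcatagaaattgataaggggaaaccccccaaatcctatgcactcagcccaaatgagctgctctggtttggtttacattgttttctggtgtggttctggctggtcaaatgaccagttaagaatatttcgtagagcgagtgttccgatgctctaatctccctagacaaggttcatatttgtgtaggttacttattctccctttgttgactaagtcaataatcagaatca
Aqp1, chr4:85812534-85812783, plus strand: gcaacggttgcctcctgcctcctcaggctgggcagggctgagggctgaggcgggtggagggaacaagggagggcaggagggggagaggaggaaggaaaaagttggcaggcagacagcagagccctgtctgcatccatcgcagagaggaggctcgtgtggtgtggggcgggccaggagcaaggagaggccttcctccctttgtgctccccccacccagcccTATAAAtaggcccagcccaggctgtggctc
Kcnj13, chr9:95518987-95519236, minus strand: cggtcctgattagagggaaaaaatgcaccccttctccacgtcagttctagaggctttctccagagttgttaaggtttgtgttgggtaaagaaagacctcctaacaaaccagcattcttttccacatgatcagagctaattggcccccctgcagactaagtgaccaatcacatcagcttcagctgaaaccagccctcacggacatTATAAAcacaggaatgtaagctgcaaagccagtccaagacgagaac
TATAAA was found in 2 of the 6 members, 30 bases before the start of Aqp1 and 46 bases before that of Kcnj13, on a search of both strands, and in 12.9% of all 33469 promoters of the table. This motif was added after the sequences had been seen. The letters TAATCC, the core bound by OTX homeobox factors, and TGTTTAC, a forkhead core, were found in 0 of the 6 members, against 6.34% and 3.21% of all promoters. Only exact matches within the 250 bases were counted, so other forms of these sites, or sites outside the window, were not searched. The base composition differed widely, with 40.4% G or C before the start of Ttr, 46.8% at Kcnj13, 65.2% at Aqp1 and 72.8% at Trpv4.

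Ttr was well above background on all 113 arrays. On the larger design its level ran from 0.10 to 12.29 over the 60 cortex arrays (median 5.09) and from 3.64 to 12.85 over the 36 hippocampus arrays (median 6.81). The highest group mean was naive cortex at 3 months, 10.29 ± 3.78 (SD, n = 4), followed by sham hippocampus at 1 year at 8.51 ± 2.92, TBI cortex at 6 months at 8.49 ± 1.68 and naive hippocampus at 1 year at 8.47 ± 2.99; the lowest was naive cortex at 6 months at 3.12 ± 1.61. When the 24 groups were put in order of their mean Ttr level, none of the 23 gaps between neighbours was larger than the larger SD of the pair. The same was true of each of the other 7 genes on the larger design. In cortex the highest group mean was that of naive rats at 3 months for 7 of the 8 genes, the exception being Col8a1, which was highest in TBI at 6 months (1.56 ± 2.53).

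Folr1, the folate receptor, showed a difference between tissues in how often it could be read. It was well above background on all 36 hippocampus arrays of the larger design (levels from -0.15 to 6.40, median 1.36) and on 29 of 60 cortex arrays (from -3.89 to 5.12, median -1.40). Sostdc1, a secreted inhibitor of bone morphogenetic protein and Wnt signals, was above background on 28 of 36 hippocampus arrays (from -2.21 to 8.31) and on 29 of 60 cortex arrays (from -3.55 to 7.43). Kcnj13 and Col8a1 went the other way: Kcnj13 was above background on 50 of 60 cortex arrays and 10 of 36 hippocampus arrays, and Col8a1 on 46 and 9. Aqp1 was above background on 59 of 60 cortex arrays and 30 of 36 hippocampus arrays, Steap1 on 52 and 25, and Trpv4 on 57 and 28. The 8 genes were thus not read alike in both tissues, and only Ttr was above background on every array.

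On the smaller design, used for hippocampus at 24 hours and 3 months, sham rats at 3 months had the highest mean of all 5 groups for each of the 8 genes. The 4 arrays of that group had Ttr levels of 9.65, 11.89, 12.34 and 9.43, Sostdc1 levels of 3.04, 6.87, 6.00 and 2.62, and Kcnj13 levels of 0.57, 4.63, 4.02 and -0.34. Replicates 2 and 3 were the high ones for each of these genes, and Folr1 followed with 0.10, 3.68, 3.24 and 0.36. Steap1 had no unflagged spot on replicate 1 of this group, so its mean there rests on 3 arrays. The gaps between neighbouring group means stayed within the larger SD for 7 of the 8 genes, and for Steap1 1 of 4 gaps was larger.

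Single arrays, rather than whole groups, held the highest levels. In cortex, replicates 1, 2 and 3 of naive rats at 3 months were among the 5 highest of the 60 arrays for all 8 genes. Their Ttr levels were 12.16, 12.29 and 12.08, while replicate 4 was at 4.62. Sostdc1 read 7.27, 7.43, 7.13 and -1.96 on these 4 arrays, Folr1 5.12, 5.03, 4.70 and -1.92, and Kcnj13 4.18, 3.96, 3.82 and 0.90. The first 3 arrays were close to each other for each of these genes, and the fourth lay apart on the low side. On the 3 high arrays the range was 4.45 to 4.58 for Aqp1, 2.74 to 3.02 for Steap1, 1.17 to 2.58 for Col8a1 and 2.64 to 2.70 for Trpv4.

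In hippocampus, replicate 3 of the naive rats and replicate 3 of the sham rats at 1 year were among the 5 highest of 36 arrays for all 8 genes. Ttr read 12.85 and 12.46 on these arrays, Sostdc1 8.31 and 8.27, Folr1 6.40 and 6.35, and Kcnj13 5.14 and 5.60. The other 34 hippocampus arrays of the larger design did not reach these levels for any member: their highest values were 9.56 for Ttr, 4.07 for Sostdc1, 2.31 for Folr1 and 0.54 for Kcnj13. The same held for Aqp1 (5.45 and 5.49 against at most 1.84), Steap1 (4.17 and 4.32 against at most 0.12), Col8a1 (3.51 and 2.83 against at most 0.44) and Trpv4 (3.34 and 3.58 against at most 0.51). Among the 57 cortex arrays outside the 3 high ones, the highest Ttr level was 10.59 and the highest Sostdc1 level 5.35, both on sham cortex at 3 months, replicate 1. For Aqp1 and Col8a1 the 3 high arrays did not hold the top level. The highest of the other 57 arrays was at 5.71 for Aqp1 and at 5.33 for Col8a1, above all 3.

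**Figure D1:**
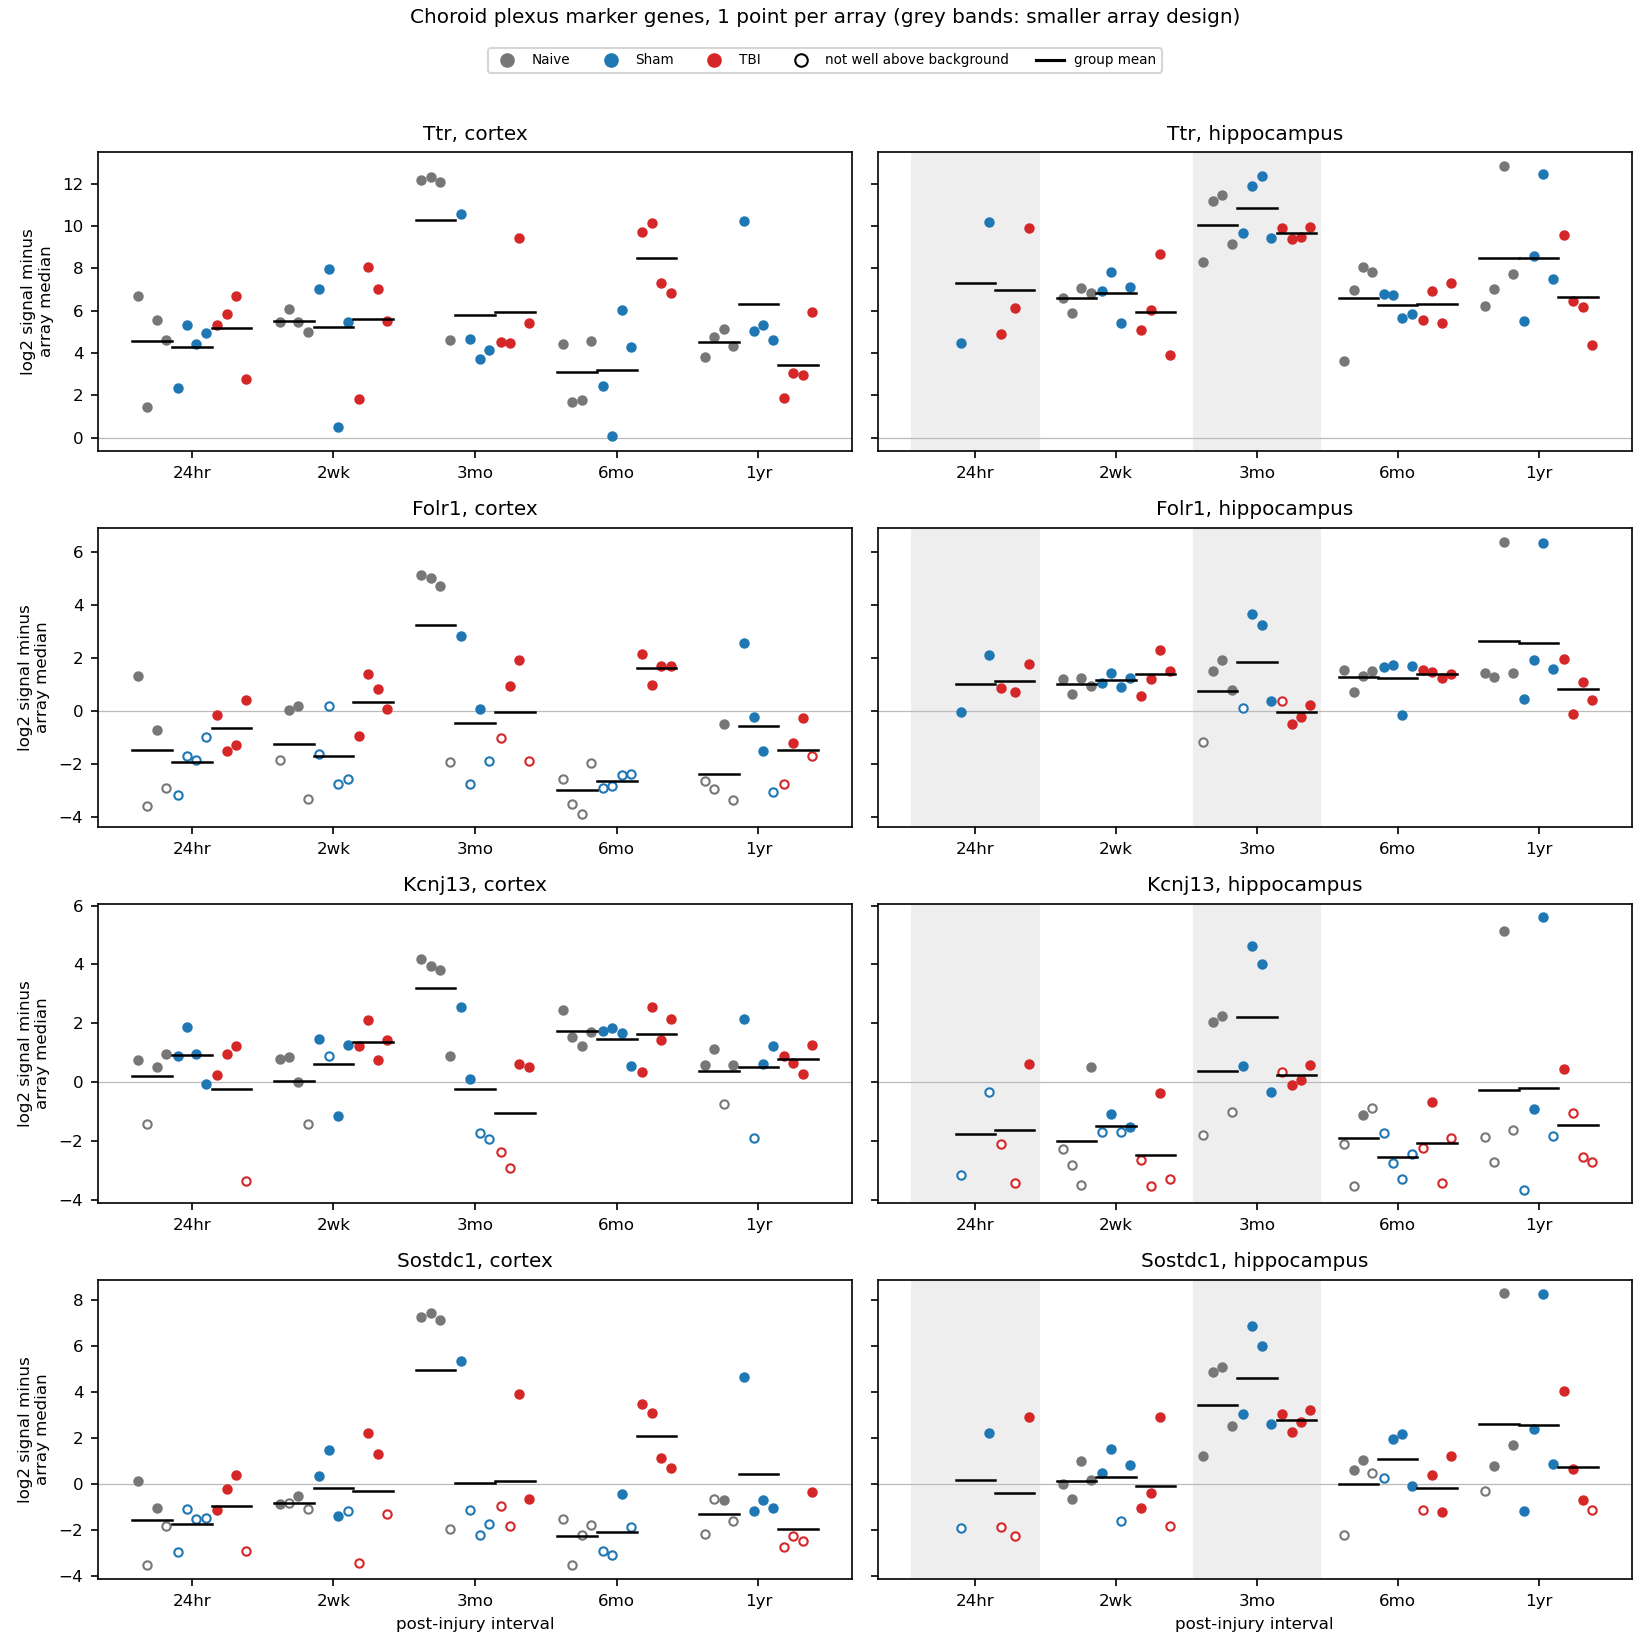
Levels of Ttr, Folr1, Kcnj13 and Sostdc1 (log2 signal minus the array median, vertical axis) on every array of cortex (left) and hippocampus (right) by post-injury interval; each point is 1 array, open points are not well above background, black bars are group means, and grey bands mark the smaller array design, whose levels cannot be compared with the others. Naive cortex at 3 months has 3 arrays with Ttr between 12.08 and 12.29 and 1 at 4.62, and in hippocampus at 1 year 1 naive and 1 sham array stand at 12.85 and 12.46.

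Other choroid plexus genes were high on the same arrays. The mean level of 31 further choroid plexus genes was 3.66, 3.68 and 3.46 on the 3 high arrays of naive cortex at 3 months and 1.43 on the fourth; in hippocampus at 1 year it was 4.26 and 4.28 on the high naive and sham array and between 0.93 and 1.76 on the other 6 arrays of these groups. The mean level of 11 genes of ependyma and motile cilia, the lining of the ventricles, was 2.11, 2.02 and 2.28 against 0.62 on the naive cortex arrays, and 3.20 and 2.88 against 1.97 to 2.74 in hippocampus. In cortex the meningeal list did not single out the high arrays, with 2.06, 2.65 and 3.16 against 3.07. In hippocampus at 1 year its mean level ran from 1.22 to 1.81 over the naive arrays and from 1.01 to 1.59 over the sham arrays. The part of ventricular lining or other tissue taken up at dissection in these values was not tested, and in RNA of a whole tissue piece, more cells of a type and more RNA per cell cannot be told apart.

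Fold changes after injury were read first for cortex at 6 months, where Ttr, Folr1 and Sostdc1 had their highest differences between TBI and sham. Folr1 rose in TBI: its levels were 2.16, 0.97, 1.70 and 1.69 on the 4 TBI arrays, all well above background, and -2.93, -2.83, -2.43 and -2.38 on the 4 sham arrays, none of them above background. The groups did not overlap, and the signal was at least 4.94-fold higher in TBI, a bound set by the lowest signal that is above background on each sham array (measured log2 difference 4.27, SE 0.38, adjusted p = 0.00263 in limma). Naive cortex at 6 months had Folr1 levels of -2.58, -3.52, -3.89 and -1.96, also below background. Folr1 entered the test through the TBI group alone, in which it was high, so that being called rests on that side of the filter.

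Ttr levels were 9.70, 10.15, 7.29 and 6.81 in TBI cortex at 6 months, 2.44, 0.10, 6.02 and 4.28 in sham and 4.44, 1.69, 1.77 and 4.58 in naive cortex. Every TBI array was above every sham and naive array, yet the difference between TBI and sham (log2 difference 5.28, SE 1.23) did not pass the test over all probes (adjusted p = 0.171). Sostdc1 levels were 3.51, 3.10, 1.13 and 0.69 in TBI against -2.92, -3.10, -0.45 and -1.86 in sham, of which 1 was above background, with a log2 difference of 4.19 (SE 0.74, adjusted p = 0.0868 in limma). Ttr and Sostdc1 were thus higher on all 4 TBI arrays, in the same order of arrays within the TBI group except for its upper pair, without passing the threshold.

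The other members differed less between TBI and sham cortex at 6 months. Steap1 levels ran from 0.52 to 1.07 in TBI and from -0.17 to 0.50 in sham, without overlap (log2 difference 0.63, SE 0.21, adjusted p = 0.340). Kcnj13 read 0.37, 2.57, 1.42 and 2.14 in TBI and 1.76, 1.86, 1.67 and 0.54 in sham, and the groups overlapped (0.17, 95% interval -0.81 to 1.15). Aqp1 (0.45, interval -0.47 to 1.38) and Trpv4 (0.01, interval -0.33 to 0.35) overlapped as well, and Col8a1 (1.27, interval -0.76 to 3.30) had 1 TBI array, replicate 2, at 5.33 and the other 3 between -0.11 and 0.63. In all, 1 of 8 members was called at an adjusted p under 0.05, against 0.0805% of the 24846 probes tested; 4 of 8 did not overlap and were higher in TBI, against 4.31% of probes; and the median log2 difference of the 8 was 0.95 against 0.03 over all probes tested. Ttr, Aqp1, Kcnj13 and Trpv4 were above background on all arrays of both groups, and of these 4 none was called; Folr1, Sostdc1, Steap1 and Col8a1 passed the filter through the TBI group alone, so their higher TBI levels are in part what the filter asks for.

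**Figure D2:**
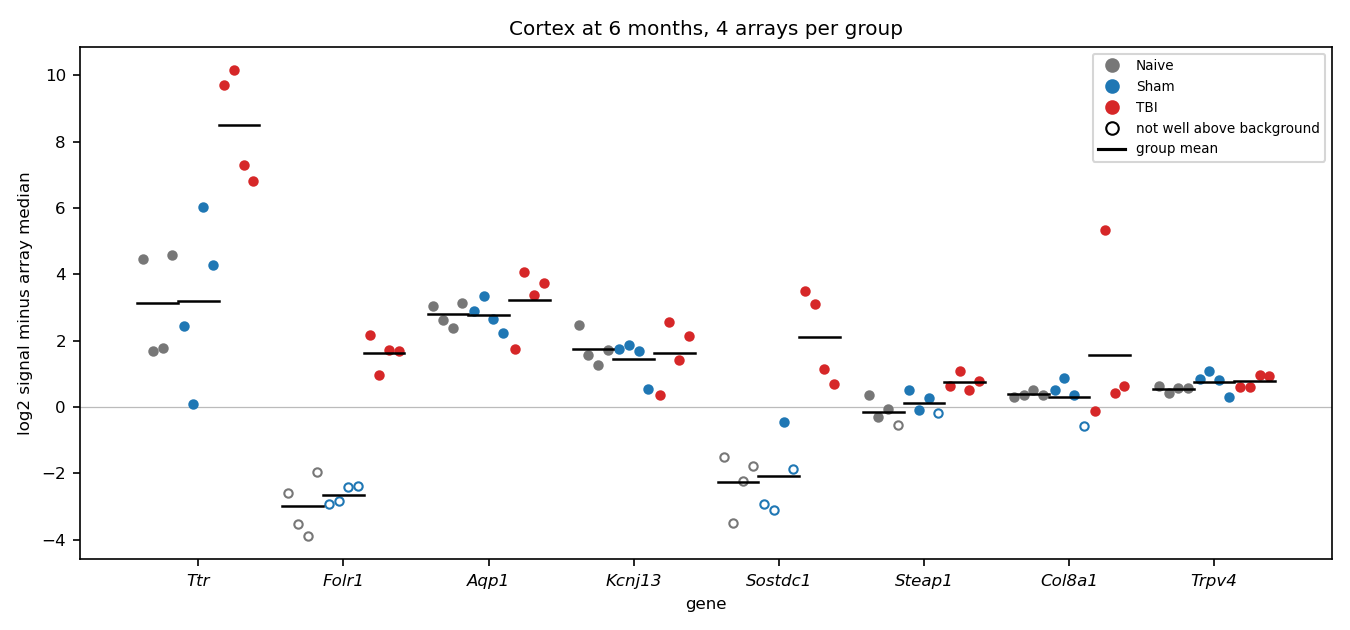
Levels of the 8 genes (log2 signal minus the array median) in cortex at 6 months, 1 point per array, for naive, sham and TBI rats; open points are not well above background and bars are group means. The 4 TBI arrays lie above all sham and naive arrays for Ttr (6.81 to 10.15 against at most 6.02), Folr1 and Sostdc1, and the groups overlap for Kcnj13, Aqp1, Col8a1 and Trpv4.

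The mean level of the 31 further choroid plexus genes was 1.66, 2.61, 1.59 and 1.79 on the 4 TBI arrays, from 1.26 to 1.48 on the sham arrays and from 0.91 to 1.30 on the naive arrays. Every TBI array was thus above every sham and naive array. Of the 21 tested, Calml4, a calmodulin-like protein, rose by 1.65 on the log2 scale (SE 0.23, adjusted p = 0.0295 in limma) and Mfrp, a frizzled-related membrane protein, by 2.26 (SE 0.36, adjusted p = 0.0498 in limma), the others were not called, and the median over the list was 0.20. Over all probes tested, 0.0805% were called. Mfrp was above background on 13 of 60 cortex arrays, and whether it entered the test through TBI alone is not given. Ependymal genes had a median of 0.83 with 0 of 8 tested called, and 9 of 11 were positive; their mean level was 1.91, 0.54, 2.35 and 2.06 on the 4 TBI arrays and between 0.46 and 1.25 on the sham arrays. The meningeal median was -0.30, the endothelial -0.13, the astrocytic 0.01, the blood 0.41 and the microglial 0.50, with no gene of these 5 lists called, and the mean meningeal level ran from 1.37 to 4.58 in TBI and from 3.15 to 4.03 in sham. The slide that held TBI cortex at 6 months also held naive cortex at 1 year, where Ttr read 3.82 to 5.14, while sham and naive cortex at 6 months shared another slide; slide and treatment cannot be told apart at this interval, and the part of the ependymal genes in the members' values was not tested. Folr1 was called under each of 16 other settings that kept it in the test, and its measured log2 difference was as low as 1.77 after normexp background correction, under which Ttr and Sostdc1 were called as well. The share of all probes called with normexp is not given. Requiring both groups above background removes Folr1 from the test and leaves 0 members called.

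The difference between tissues at 6 months was tested as an interaction. Hippocampus at 6 months had Folr1 levels of 1.53, 1.45, 1.26 and 1.4 in TBI and 1.66, 1.74, -0.15 and 1.69 in sham (log2 difference 0.18, SE 0.31), and the effect of TBI on Folr1 in hippocampus was measured 4.09 log2 units below that in cortex (-4.09, SE 0.54, adjusted p = 0.00269 in limma). Since Folr1 was above background on 0 of the 4 sham cortex arrays, the size of this difference rests on signals below background. In both tissues TBI and sham lay on different slides at 6 months. In a fit with each rat as a block over its 2 tissues, chosen after seeing the data, the adjusted p was 0.00551. Folr1 was the 1 probe called of 24998 (0.004%). The same difference was -5.23 for Ttr (SE 1.51, adjusted p = 1) and -5.46 for Sostdc1 (SE 1.1, adjusted p = 0.330), and neither was called. Ttr in hippocampus at 6 months read 5.55, 6.94, 5.43 and 7.32 in TBI and 6.79, 6.75, 5.64 and 5.86 in sham. At 2 weeks and 1 year the interaction called 0 of 25442 and 0 of 26146 probes (0%) in limma, with 590 and 2279 at p under 0.05 before adjustment, and no member was called.

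Over all 10 comparisons of TBI with sham, 51 of 80 pairs of a member and a comparison passed the filter on background, 1 was called, and 10 met the thresholds of the methods, a fold change of at least 1.4 with an unadjusted p under 0.05. In cortex these were 4 members at 6 months (Ttr, Folr1, Sostdc1 and Steap1, against 3.94% of probes), Trpv4 at 24 hours (10.3% of probes), Folr1 at 2 weeks (4.04%), none at 3 months (2.95%), and Ttr and Steap1 at 1 year (1.57%). In hippocampus they were Trpv4 at 24 hours (24.8%) and at 3 months (1.9%), and none at 2 weeks (4.55%), 6 months (2.5%) or 1 year (4.5%). The direction was not the same at all intervals. At 1 year in cortex (0% of 25211 probes called in limma, 1455 at p under 0.05 before adjustment), Ttr read 1.88, 3.05, 2.98 and 5.92 in TBI and 10.21, 5.05, 5.35 and 4.60 in sham, a log2 difference of -2.84 (SE 1.15, adjusted p = 0.83), and of -3.66 to -1.54 leaving out 1 array, smallest without sham replicate 1. Steap1 differed by -0.71 (SE 0.19) and Sostdc1 by -2.41 (SE 1.13), with the same adjusted p, and 3 of the 4 TBI arrays had Sostdc1 below background. Ttr, which had its largest positive difference at 6 months, was therefore measured lower in TBI than in sham at 1 year, with overlapping groups.

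In hippocampus at 3 months, all 8 members were measured lower in TBI than in sham, with log2 differences from -2.28 to -1.15 and a median of -1.73, and 0 of 4 tested were called (0.0138% of 14508 probes were in limma; before adjustment 1 member, Trpv4, had p under 0.05). Aqp1, Steap1 and Col8a1 were above background on none of the TBI arrays. The sizes of their differences, with the -2.28 of Col8a1, thus rest on signals below background. Over all probes tested, 4.02% were lower in TBI without overlap and 0.241% higher, and the groups overlapped for every member. The TBI arrays were close to each other, with Ttr at 9.92, 9.37, 9.48 and 9.96 and Sostdc1 at 3.03, 2.27, 2.71 and 3.21, and lay beside the lower 2 sham arrays. At 1 year in hippocampus the median of the members was -1.50, from -2.43 to -0.07 leaving out 1 array and nearest to 0 without sham replicate 3, and 0 of 6 tested were called (0% of 25342 probes were in limma, 3679 at p under 0.05 before adjustment). Ttr there read 9.56, 6.46, 6.17 and 4.38 in TBI and 5.51, 8.57, 12.46 and 7.50 in sham. Both negative medians stand beside 1 or 2 sham arrays with all members high.

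At 24 hours and 2 weeks no member was called between TBI and sham. At 24 hours slide and treatment cannot be told apart in either tissue, nor can scan day and treatment in hippocampus. At 24 hours in cortex (0.217% of probes called), Folr1 read -0.16, -1.51, -1.29 and 0.41 in TBI, all above background, and -3.20, -1.70, -1.87 and -1.0 in sham, none above background (log2 difference 1.31, adjusted p = 0.451 in limma). The groups overlapped, Folr1 entered the test through TBI alone, and the difference was 0.89 to 1.62 leaving out 1 array. Trpv4 read 1.52, 0.93, 0.59 and 2.08 in TBI and -0.02, 1.02, -0.22 and 0.81 in sham (0.88, SE 0.35, adjusted p = 0.175). In hippocampus at 24 hours (14.2% of probes called), Trpv4 read 0.51, 1.67 and 0.48 in TBI and -0.98 and 0.27 in sham (1.24, SE 0.49, adjusted p = 0.142). Ttr in hippocampus at 24 hours read 4.91, 6.14 and 9.88 in TBI and 4.46 and 10.17 in sham, and the 95% interval of the difference ran from -5.12 to 4.44. At 2 weeks in hippocampus (2.43% of probes called) 0 of 5 tested members were called, and their log2 differences lay between -0.90 and 0.23, none with p under 0.05 in limma before adjustment.

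At 2 weeks in cortex the sham array that stands apart raises the median of all probes in this comparison to 0.95 on the log2 scale, and to 0.01 without it. TBI and sham also lay on different slides here, so slide and treatment cannot be told apart. Folr1 read -0.97, 1.4, 0.81 and 0.06 in TBI, all above background, and -1.62, 0.17, -2.76 and -2.59 in sham, none above background, a log2 difference of 2.03 (SE 0.89, adjusted p = 0.502; 0.00849% of 23560 probes called) and a signal at least 1.75-fold higher in TBI, through which alone it entered the test. Without sham replicate 3, which is at -2.76, Folr1 was called (adjusted p = 0.0365 in limma), and the share of all probes called in that fit is not given. Ttr read 1.85, 8.07, 7.03 and 5.52 in TBI and 7.02, 7.98, 0.51 and 5.48 in sham, and its lowest value in sham was on replicate 3. At 3 months in cortex, 0 of 3 tested members were called (0% of 21914 probes were in limma, 954 at p under 0.05 before adjustment); Ttr read 4.52, 4.46, 9.41 and 5.41 in TBI and 10.59, 4.67, 3.74 and 4.14 in sham, with 1 high array in each group.

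**Figure D3:**
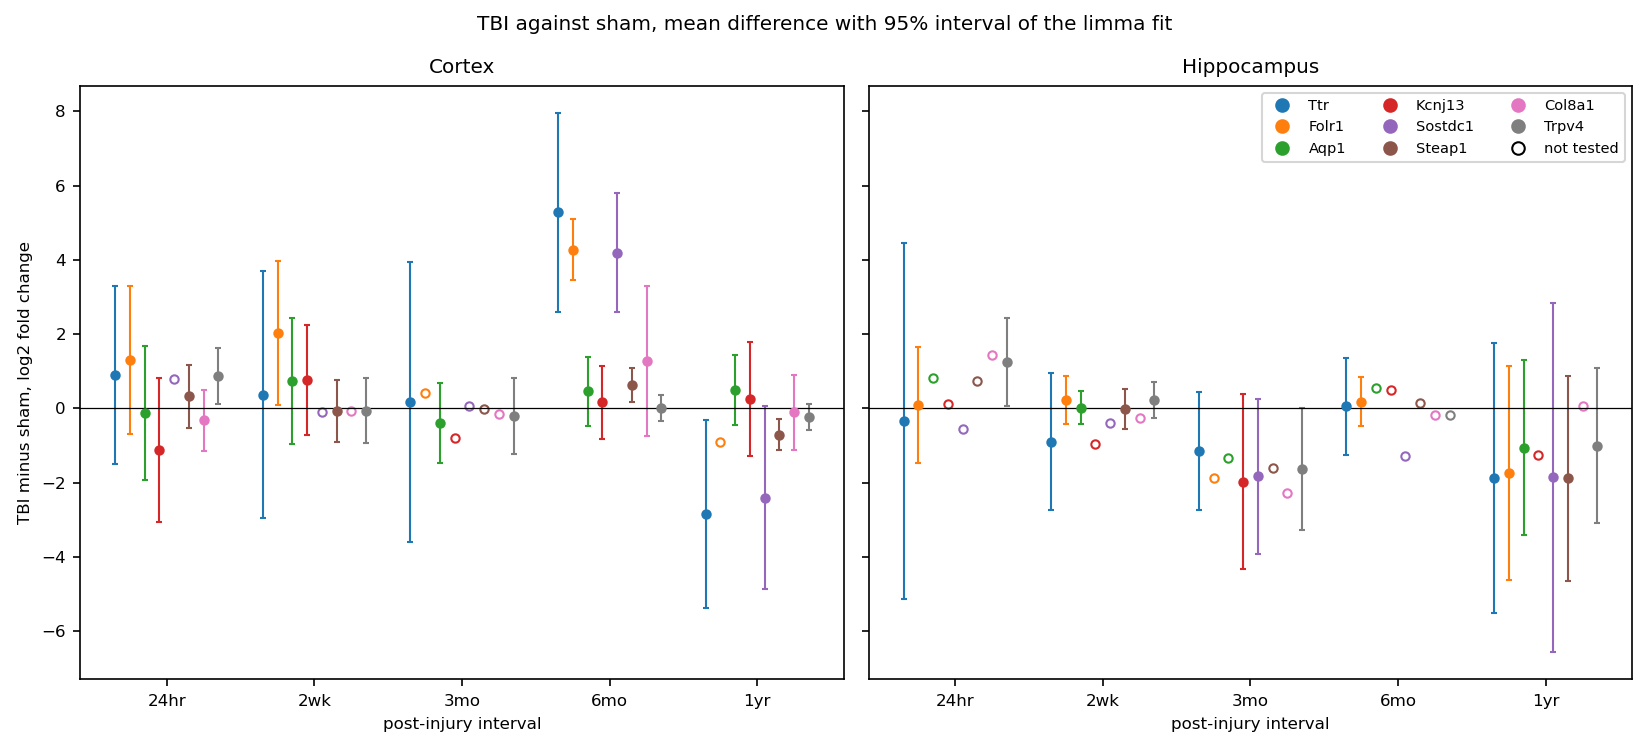
Log2 fold change of TBI over sham for the 8 genes at each post-injury interval in cortex (left) and hippocampus (right); bars are 95% intervals of the limma fit and open points were not tested because neither group was above background on all arrays. In cortex at 6 months Ttr, Folr1 and Sostdc1 lie at 5.28, 4.27 and 4.19 with intervals above 0, and at 1 year Ttr lies at -2.84.

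Sham surgery was compared with no surgery in 9 comparisons, in which 43 of 72 pairs passed the filter, 0 were called, and 5 had an unadjusted p under 0.05, against 15.9% of all probes tested in these comparisons; the lowest adjusted p in limma was 0.0961. The members' differences were largest in cortex at 3 months, where 0.404% of 21262 probes were called. All 8 were measured lower in sham, with log2 differences from -4.90 to -1.58 and a median of -2.94, next to a median of -0.11 over all probes tested. Ttr read 10.59, 4.67, 3.74 and 4.14 in sham against the naive values given above (-4.51, SE 1.76, adjusted p = 0.439), and Kcnj13 2.57, 0.13, -1.72 and -1.92 (-3.45, SE 1.03, adjusted p = 0.221). Trpv4 (-1.75, SE 0.48, adjusted p = 0.162) and Aqp1 (-1.58, SE 0.51, adjusted p = 0.275) were also not called. Folr1, Sostdc1, Steap1 and Col8a1 were not tested. Both groups contained an array that went against the rest, naive replicate 4 and sham replicate 1, and 5 members were called without the first and 1 without the second. These arrays stand out by the members' own levels. Without naive replicate 4, Folr1, Sostdc1, Steap1 and Col8a1 enter the test through the naive group alone, in which they are high. That count is therefore in part what the filter asks for. The shares of all probes called without these arrays are not given.

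Beside this comparison, Msx1, a homeobox factor, was lower in sham (-2.15, SE 0.43, adjusted p = 0.0436), the other 13 tested of the further choroid plexus genes were not called, and that list had a median of -1.82. The ependymal median was -0.63 and the meningeal -0.48. Naive cortex at 3 months shared its slide with TBI cortex at 2 weeks, where Ttr ran from 1.85 to 8.07, and sham and TBI cortex at 3 months shared another slide; slide and surgery cannot be told apart.

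The remaining comparisons of sham with naive rats showed smaller differences. At 24 hours in cortex, where 19.3% of 23785 probes were called, Aqp1 read 2.54, 5.71, 2.84 and 3.40 in sham and 1.85, 1.57, 1.83 and 2.18 in naive rats, without overlap (1.77, SE 0.81, adjusted p = 0.144). Col8a1 levels ran from -0.30 to 1.16 in sham and from -1.04 to 0.22 in naive cortex (0.92, SE 0.37, adjusted p = 0.0961). At 2 weeks in cortex (0% of 22559 probes called in limma, 11 at p under 0.05 before adjustment), Aqp1 read 3.46, 3.05, -0.38 and 3.32 in sham and 1.60, 2.10, 1.60 and 0.18 in naive rats. The low sham value is the array that stands apart, and without it Aqp1 was called, with a log2 difference of 1.90 (adjusted p = 0.0017 in limma). The share of all probes called without that array is not given, so this call has no share beside it. In hippocampus at 3 months all 8 members were measured higher in sham than in naive rats, with log2 differences from 0.80 to 1.84 (median 1.21), and 0 of 4 tested were called (0% of 15734 probes were in limma, 892 at p under 0.05 before adjustment). Ttr there read 9.65, 11.89, 12.34 and 9.43 in sham and 8.31, 11.19, 11.44 and 9.16 in naive rats, and the groups overlapped. Equal replicate numbers deviated together in this comparison, and within each of the 4 numbers sham was higher than naive for Ttr; with the number as a block its adjusted p was 0.985 and no member was called in limma. In cortex at 1 year (4.36% of probes called) Ttr read 10.21, 5.05, 5.35 and 4.60 in sham against 3.82 to 5.14 in naive rats, a log2 difference of 1.78 that rests on sham replicate 1. No member was called in cortex at 6 months (0% of 22962 probes in limma, 1554 at p under 0.05 before adjustment) or in hippocampus at 2 weeks (8.98%), 6 months (3.54%) and 1 year (3.11%).

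The 2 probes of Aqp1 on the larger design followed each other within groups (r = 0.965 over 60 cortex arrays and 0.913 over 36 hippocampus arrays); the second, dimmer probe gave -1.19 in place of -0.39 for TBI against sham in cortex at 3 months, -2.94 in place of -1.98 for naive hippocampus against cortex at 6 months, and for sham against naive rats the opposite sign at 2 weeks in hippocampus (-0.58 in place of 0.12), at 6 months in cortex (0.12 in place of -0.02) and at 1 year in hippocampus (-0.22 in place of 0.28).

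The tissues were compared in naive rats at the 3 intervals read on 1 design. At 6 months, Ttr and Folr1 were higher in hippocampus, and Aqp1, Kcnj13, Col8a1 and Trpv4 lower, and all 6 tested members were called, against 16.5% of 22823 probes. Ttr was the 1 member above background on all arrays of both tissues; the other 5 entered the test through the tissue in which they were high, and with both tissues above background required, Ttr alone was tested and called. Ttr read 3.64, 6.99, 8.04 and 7.82 in hippocampus and 4.44, 1.69, 1.77 and 4.58 in cortex (3.50, SE 0.29). Folr1 read 1.55, 0.70, 1.32 and 1.49 in hippocampus, and none of the cortex arrays was above background, so that it was at least 4.91-fold higher in hippocampus (measured log2 difference 4.25). Kcnj13 read -2.10, -3.51, -1.10 and -0.85 in hippocampus, of which 1 was above background, and 2.46, 1.55, 1.25 and 1.70 in cortex (-3.63). In this fit limma gave every probe the same error, 0.29, so single probes with a wide spread have p-values that are too small. In a fit of all groups of both tissues, chosen after seeing the data, 5 of the 6 stayed past the threshold: Ttr (SE 1.05, adjusted p = 0.0134), Folr1 (SE 0.38, adjusted p = 3.0e-08), Aqp1 (difference -1.98, SE 0.36, adjusted p = 0.000189), Kcnj13 (SE 0.55, adjusted p = 2.8e-05) and Trpv4 (difference -1.14, SE 0.20, adjusted p = 0.00014), but not Col8a1 (difference -1.44, SE 0.77, adjusted p = 0.174).

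At 2 weeks, Folr1 was higher and Col8a1 lower in naive hippocampus, 2 of 7 tested members against 5.02% of 24234 probes. Folr1 read 1.18, 0.64, 1.26 and 0.95 in hippocampus and -1.84, 0.04, 0.17 and -3.35 in cortex (2.25, beside a median of 0.44 over all probes, with an adjusted p = 0.116 in the limma fit of all groups). The cortex array at -3.35, replicate 4, had 65.1% of probes above background. Its median log2 signal was 7.50, against 5.51 to 5.90 on the rest of its group. Without it 5 members were called, and the share of all probes in that fit is not given. Col8a1 was below background on all 4 hippocampus arrays and above it on all 4 cortex arrays, and was at least 2.17-fold lower in hippocampus (adjusted p = 0.0286 in the fit of all groups). At 1 year, Ttr (3.95, SE 1.19, adjusted p = 0.0267) and Folr1 (5.01, SE 1.1, adjusted p = 0.00682) were higher in hippocampus, 2 of 5 tested against 37.4% of 22611 probes, a share like that of all probes. Without naive hippocampus replicate 3, an array that stands out by the members' own high levels, 5 members were called at 1 year. Ttr (2.49) and Folr1 (3.76) were then higher in hippocampus, and Aqp1 (-1.23), Steap1 (-0.80) and Trpv4 (-1.12) lower. Aqp1, Steap1 and Trpv4 entered the test through cortex, in which they were high. The share of all probes in that fit is not given. Folr1 was called at all 3 intervals, each time entering the test through hippocampus, since it was above background on 2, 0 and 1 of the 4 cortex arrays, and every hippocampus array was above every cortex array for it at each of them.

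**Figure D4:**
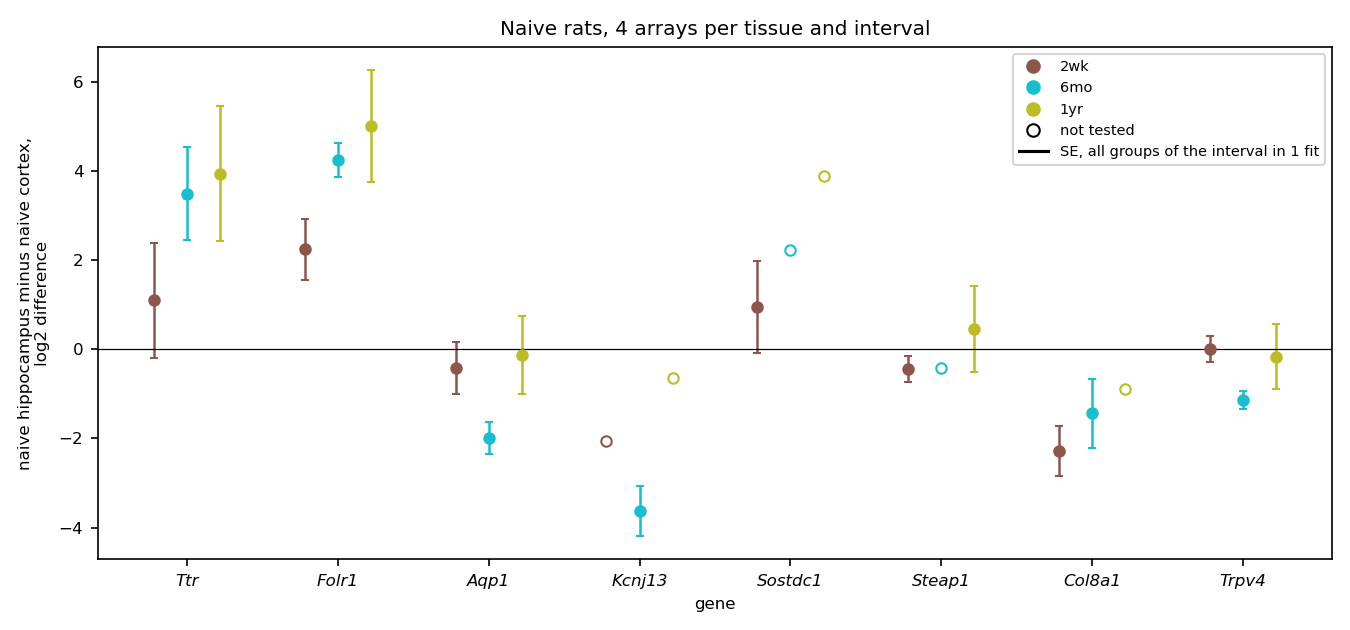
Log2 difference between naive hippocampus and naive cortex for the 8 genes at 2 weeks, 6 months and 1 year, 4 arrays per tissue and interval; bars are SE of the fit of all groups of an interval and open points were not tested. Folr1 lies above 0 at each interval (2.25, 4.25 and 5.01), while Kcnj13 at 6 months lies at -3.63.

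Other lists moved with the tissues. Meningeal genes were lower in hippocampus for 10 of 12 tested at 6 months (median -3.26) and for 10 of 12 at 1 year (median -1.89). Over all probes, 11.7% and 12% were called lower. Ependymal genes were higher for 5 of 9 at 6 months (median 1.46) and 7 of 9 at 1 year (median 1.55), against 4.8% and 25.3% of all probes. The counts at 6 months come from the fit with the same error for every probe, so they may be too high. Of 15 further choroid plexus genes tested at 6 months, Calml4 was higher (4.66), and 5 were lower, among them the sodium-iodide symporter Slc5a5 (-3.10), the growth factor Igf2 (-2.86) and the binding protein Igfbp2 (-2.57). At 1 year 5 of 19 tested were higher, a share close to the 25.3% of all probes, led by Calml4 (4.71) and the homeobox factor Otx2 (4.34), and none was lower. The part of meningeal tissue in the lower Aqp1, Kcnj13, Col8a1 and further choroid plexus genes of hippocampus was not tested, and tissue, slide and scan day cannot be told apart in this comparison.

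Within groups, the members rose and fell together. Each array was expressed as its deviation from its group mean, and Pearson's r was taken over the 28 pairs of members; the points share the array, its scaling and its dissection, the members were listed for going together, and no p is given. The median r was 0.475 over 60 cortex arrays (from 0.083 to 0.921), 0.820 over 36 hippocampus arrays of the larger design (from 0.710 to 0.954) and 0.807 over the 17 of the smaller design (from 0.567 to 0.960). Ttr and Sostdc1 were the closest pair in cortex (r = 0.921) and in hippocampus on the larger design (r = 0.954), and Folr1 and Col8a1 the loosest in cortex (r = 0.083). In cortex the water channel Aqp1 and the potassium channel Kcnj13 followed each other (r = 0.772), as did Steap1 and Trpv4 (r = 0.807), while Aqp1 followed Folr1 (r = 0.291) and Steap1 (r = 0.273) loosely.

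The correlations were lower with some arrays left out. Without the 2 arrays farthest from the median, the median r was 0.315 in cortex and 0.622 in hippocampus on the larger design, and without the 10 farthest, a setting chosen after seeing the data, 0.168 and 0.185. The farthest arrays were picked by the mean deviation of the members themselves. Leaving them out lowers r through that choice alone, so the fall cannot show how many arrays carry the correlation. Without the 3 months interval it was 0.231 in cortex, and without the 1 year interval 0.270 in hippocampus on the larger design. For Ttr and Sostdc1 the correlation held without the 2 farthest arrays, at 0.904 in cortex and 0.928 in hippocampus. The share of a gene's variance found within groups was 38.0% for Trpv4 to 61.1% for Aqp1 in cortex, and 72.3% for Trpv4 to 83.6% for Kcnj13 in hippocampus on the larger design.

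**Figure D5:**
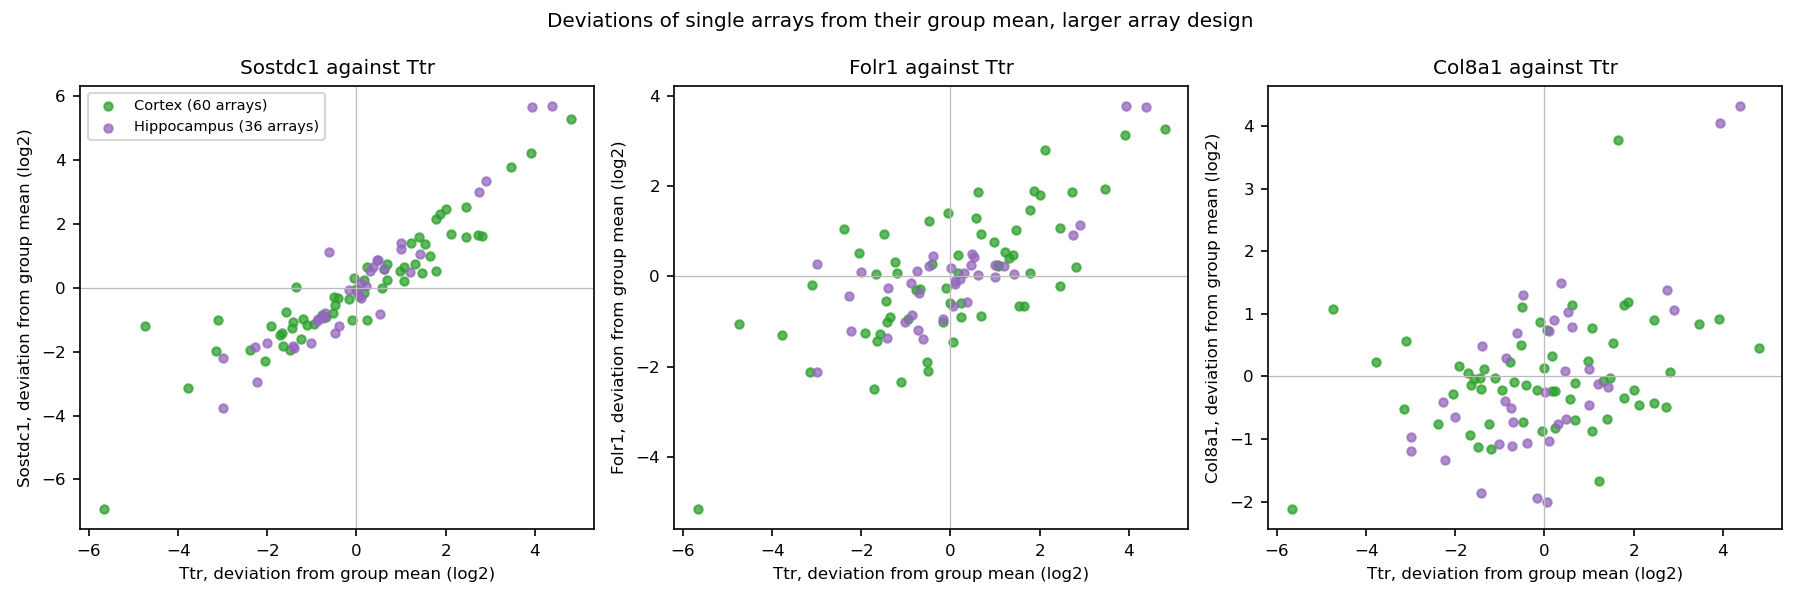
Deviation of single arrays from their group mean (log2) for Sostdc1, Folr1 and Col8a1 against that of Ttr, larger design, 60 cortex and 36 hippocampus arrays. Sostdc1 follows Ttr over the whole range (r = 0.921 and 0.954), Col8a1 in cortex hardly does (r = 0.277).

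The mean deviation of the 8 members was compared with that of the other lists. It followed the 31 further choroid plexus genes most, with r = 0.933 in cortex, 0.941 in hippocampus on the larger design and 0.911 on the smaller, and 0.893, 0.827 and 0.875 without the 2 farthest arrays. For the ependymal list r was 0.443, 0.392 and 0.407 in the same order, and for the meningeal list 0.313, 0.241 and 0.614. These 2 lists had no fixed order, since the meningeal value was the higher one on the smaller design and, at 0.423 against 0.395, in cortex without the 2 farthest arrays. The endothelial list had 0.123, -0.264 and -0.187, and the share of probes above background -0.189, 0.169 and 0.292.

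The genes closest to the members, out of all named genes above background on at least 4 arrays of the tissue, were ranked by the same measure. In cortex (12773 genes ranked over 60 arrays) the 10 closest included the tight junction protein Cldn2 (r = 0.803), Calml4 (0.799), Smim22 (0.787), the adipokine Adipoq (0.775), the keratin Krt18 (0.747), the amino acid transport protein Cltrn (0.736), Mfrp (0.727), Cnmd (0.716) and Otx2 (0.711). In hippocampus (12046 genes ranked over 36 arrays) they were Cltrn (0.949), the cytochrome c oxidase subunit Cox8b (0.923), the lysophospholipase Enpp2 (0.918), Scgb1c1 (0.917), the potassium channel subunit Kcne2 (0.916), Cldn2 (0.915), the lactate carrier Slc16a8 (0.906), klotho (Kl, 0.897), Mfrp (0.891) and the peptidase Ace (0.891). Cldn2, Cltrn and Mfrp were in both lists, and 5 of the 10 in cortex and 6 of the 10 in hippocampus belonged to the list of further choroid plexus genes. Cldn2 was above background on 9 of 60 cortex arrays and 4 of 36 hippocampus arrays, Cltrn on 11 and 6, and Mfrp on 13 and 13. Adipoq was above it on 6 cortex arrays and Kl on 6 hippocampus arrays. The likeness of these genes thus rests on few arrays, and mostly on signals below background. Calml4 was above background on 58 cortex arrays and Enpp2 on all 36 hippocampus arrays. Of the further choroid plexus genes ranked, 14 of 31 in cortex and 21 of 28 in hippocampus had r over 0.5, as had 44 of all 12773 and 198 of all 12046 genes. Without the 2 arrays farthest from the median, the 10 genes had r from 0.570 to 0.712 in cortex and from 0.676 to 0.856 in hippocampus.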

How the data were processed

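RNA of each tissue sample was hybridised to a 1-colour Agilent array. The deposited scanner files give intensity values per spot, already background-subtracted and detrended by Agilent Feature Extraction 11.5.1.1 per the file headers, with 0 or 1 flags; the authors' own table holds intensities divided by 1 constant per array, with a floor, and was used as an alternative; the constant lay at the 74.9th percentile of the array in the median, and at the 15.9th on the sham cortex array that stands apart. Spots flagged as outliers were left out, spots of 1 probe were averaged, and log2 intensity minus the array median was taken, the scaling of the methods. Probes entered a comparison when well above background on every array of at least 1 group compared. All groups of a tissue and interval were fitted together in limma 3.58.1 (R 4.3.3), with Benjamini-Hochberg adjustment over all probes tested, and adjusted p under 0.05 was called; the fits were tested on simulated data. Where a probe is below background in a whole group, "at least" folds compare the bright group's mean with the lowest signal above background on each array of the dim group. Replicates are arrays of separate rats, 2 to 4 per group, which limits the precision. The deposited files of hippocampus and cortex carry the same animal number in 28 of 36 pairs at 2 weeks, 6 months and 1 year; comparisons between tissues treat these arrays as independent, with the rat as a block as an alternative.

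A gene was read from its brightest probe. Through RefSeq accessions (GRCr8), 18643 of 30367 probes of the smaller design (61.4%) and 21109 of 45598 of the larger (46.3%) had a gene name. The members, the marker lists and the motifs were chosen with earlier results of these data known. Beside the members, the text names the 10 genes per tissue most like their mean deviation from group means, and listed genes that were called. 1 gene of the cortex ranking is not reported here. Normexp correction used median spot signals. Other alternatives were 75th percentile and quantile scaling, other filters, a replicate block, fits of only the groups compared or of both tissues, and leaving out each array. Equal replicate numbers deviated together, by the rule that every pair correlates over 0.1, in cortex at 1 year (TBI and sham), hippocampus at 3 months (sham and naive) and naive tissues at 2 weeks and 1 year, and not elsewhere. No array repeated another (highest correlation of 2 arrays 0.995). Python 3.11.15 with pandas 2.3.3 was used for descriptions.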

Additional observations from a re-analysis of the deposited data

Results flagged for a closer look

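In each gene and group of 4 arrays of the 8 members, the highest or lowest array was compared with its neighbour (Dixon's criterion at 95%). Of 215 such sets 27 had an array far from the others, 16 at the high and 11 at the low end, where 10.75 would be flagged by chance at 1 in 20; genes of 1 array are not independent, so these come in blocks.

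Naive cortex at 3 months, replicate 4, was far below the other 3 arrays for 7 genes, at 4.62 for Ttr, -1.92 for Folr1, 1.85 for Aqp1, 0.90 for Kcnj13, -1.96 for Sostdc1, -0.27 for Steap1 and 0.072 for Trpv4. Naive hippocampus at 1 year, replicate 3, was far above for Folr1 (6.40), Aqp1 (5.45), Kcnj13 (5.14), Steap1 (4.17) and Col8a1 (3.51), and sham hippocampus at 1 year, replicate 3, for Aqp1 (5.49), Col8a1 (2.83) and Trpv4 (3.58). Sham cortex replicate 1 was far above for Ttr and Sostdc1 both at 3 months (10.59 and 5.34) and at 1 year (10.21 and 4.68).

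The other arrays stood out for 1 or 2 genes. Sham cortex at 2 weeks, replicate 3, the array that stands apart over all probes, was low for Aqp1 (-0.38) and high for Col8a1 (0.97). Col8a1 was high on replicate 2 of TBI cortex at 6 months (5.33), Aqp1 on replicate 4 of TBI cortex at 1 year (3.95) and Steap1 on replicate 3 of the same group (-0.16). Folr1 was low on replicate 3 of sham hippocampus at 6 months (-0.15), Kcnj13 on replicate 4 of sham cortex at 6 months (0.54) and Trpv4 on replicate 1 of TBI cortex at 3 months (-0.68).

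The effect of TBI on Folr1 at 6 months differed between the tissues, by -4.09 on the log2 scale in hippocampus relative to cortex (limma interaction, adjusted p = 0.00269). Folr1 was above background on none of the 4 sham cortex arrays, so the size rests on signals below background. Slide and treatment cannot be told apart in the arrays of either tissue behind this value.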

How the results depend on the processing

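Folr1 in cortex at 6 months was called under all 16 alternatives that kept it in the test (log2 difference 1.77 to 4.61, adjusted p from 7.7e-05 to 0.0218 in limma), and its interaction with tissue under all 25 (-4.55 to -1.66, adjusted p from 2.4e-05 to 0.0407). Requiring both groups above background left 0 members called in each, as it removes Folr1 from the test. No log2 difference of a called member changed sign, and counts of members called stayed within 1.5 times the main count under all other settings not given here. The share of all probes called is given for the main fits only. Counts under other settings, or without an array, have no share beside them. In cortex at 6 months 3 members were called with normexp and 4 by fold and unadjusted p. That rule also called 1 member in hippocampus at 24 hours, hippocampus at 3 months, cortex at 24 hours and cortex at 2 weeks, and 2 in cortex at 1 year. With the replicate number as a block 1 member was called in hippocampus at 24 hours (Trpv4, adjusted p = 0.038 in limma), where 3 TBI arrays meet 2 sham arrays; the block, by number or by rat, changed no other call. Numbers there do not pair the samples by the check above. Slide could not be used as a block, because each group lies on 1 slide.

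Leaving out 1 array gave 0 to 1 members called for TBI against sham in cortex at 2 weeks (1 without sham replicate 3), 0 to 1 for sham against naive cortex at 2 weeks (1 without sham replicate 3) and 0 to 5 at 3 months (5 without naive replicate 4, 1 without sham replicate 1). In naive tissues it gave 2 to 5 at 2 weeks (5 without cortex replicate 4) and 1 to 5 at 1 year (1 without cortex replicate 1, 2 or 4, 5 without hippocampus replicate 3). There, quantile scaling gave 1 at 2 weeks, no filter 0 at 2 weeks, 3 at 6 months and 1 at 1 year, both groups above background 0, 1 and 1, and the fit of both tissues 1 at 2 weeks; the cause was not tested, beyond the change in probes tested.

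The members' median difference between TBI and sham cortex at 2 weeks was -0.60 with 75th percentile scaling, -1.15 in the authors' values, and -0.11 to 0.81 leaving out 1 array; over all probes the same scalings moved the median from 0.95 to 0.20 and -0.39. At 6 months in cortex it was 0.35 to 1.39 leaving out 1 array, lowest without TBI replicate 2. The median correlation within groups was 0.168 in cortex without the 10 arrays farthest by the members' own mean deviation, and 0.231 to 0.608 leaving out 1 interval. In hippocampus on the larger design it was 0.911 with normexp, 0.615 by Spearman's rho, 0.622 and 0.185 without the 2 and 10 farthest arrays, and 0.270 to 0.898 leaving out 1 interval. On the smaller design it was 0.659 in the authors' values. Members near background (Col8a1 and Kcnj13 in hippocampus, Folr1 and Sostdc1 in cortex) have no measurable order below it.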
